A study of Mus musculus with 10 samples.

Results

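The genes described here are 50 developmental transcription factor genes outside the Hox clusters, from the Pax, Sox, Fox, Tbx, Gata, Nkx, Lhx, Irx, Meis, Otx, Dlx and Pitx families together with Six2, Six3, En2, Wt1, Hand2, Barx1 and Tcf21. All windows of 1000 bp that overlapped a RefSeq gene span of GRCm38 extended by 5 kb on each side were taken as the windows of that gene. This gave 1446 of the 446336 windows measured, between 6 for Tcf21 and 87 for Meis1, and none was shared by a pair of the factors. All 50 genes were among the 32826 genes with enough windows for a test, and 1423 of their windows had at least 20 CpG calls in every mouse. The factors were divided into 16 lung-expressed factors, 21 lung-silent factors and 13 that were not assigned. This rested on textbook knowledge of the adult lung and not on RNA of these mice. Factors were not assigned where expression is in few cells, in pulmonary vein myocardium or mainly before birth, or is not known well enough.

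These transcription factors set up the body axis and the organs of the embryo, and each stays active afterwards only in the tissues it specified. Their genes lie in long CpG-rich stretches that remain free of methylation in most tissues, also where the gene is off, because Polycomb complexes rather than DNA methylation usually hold them silent. In the lung, T-box factors, Foxf1 and Tcf21 belong to the mesenchyme, Foxa1, Gata6 and Sox2 to the epithelium, and Wt1 to the mesothelium, whereas most Pax factors belong to brain, muscle, kidney, thyroid or thymus.

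Lung DNA of 10 female BALB/c mice aged 8 weeks was profiled by Methyl-seq with SureSelect capture: probes pull down chosen CpG-rich regions and bisulfite then tells methylated from unmethylated cytosines. The 3 saline mice had received no ovalbumin. The 3 OVA-induced mice had 2 injections of 50 µg ovalbumin into the abdomen with aluminium salt and 4 days of 25 µg ovalbumin into the nose, a model of allergic asthma. The 4 DSE-treated mice, labelled Herb, had the same ovalbumin and 200 mg/kg of an ethanol extract of Descurainia sophia seeds by mouth on 7 days. DNA came from whole lung, so a change in the mix of cells and a change of methylation inside cells cannot be told apart.

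Each mouse gave 306656737 to 410836272 CpG calls summed over the windows, in which a call is counted again in each overlapping window. The mean chi-square of the calls per window between mice of a group was 2.59 to 3.66, so the mice differed by more than the counting of independent calls would give, and no library was held more than once. Methylation was higher in most of the genes measured in both ovalbumin groups. The difference of the median gene was 1.02 points in OVA vs. saline, 1.05 points in DSE vs. saline and -0.01 points in DSE vs. OVA. With calls pooled over the windows of a gene, the same medians were 0.27, 1.81 and 1.18 points. The size of the shift in each comparison thus depends on how windows are weighted. A point is a percentage point of methylated CpG calls. Changes of the factors are read against the first set of medians, in which each window of a gene counts the same. Genes that mark cell types also moved. Over the gene span, 4 of 13 leukocyte genes were called lower and 0 higher in OVA vs. saline, and their mean was 58.0% to 58.6% in saline, 54.2% to 55.3% in OVA-induced and 53.5% to 55.3% in DSE-treated mice. Of the endothelial genes, 5 of 6 were called higher and 0 lower, with a mean of 40.8% to 42.5%, 46.6% to 49.2% and 45.3% to 47.8%. Of the lung epithelial genes, 3 of 7 were called higher and 0 lower, with a mean of 46.6% to 48.98%, 48.7% to 51.1% and 48.8% to 50.8%. Of the genes of other organs, 1 of 6 was called higher and 0 lower. Over all genes, 9.18% were called higher and 3.28% lower in OVA vs. saline. The median difference was -1.83 points for leukocyte, 6.29 for endothelial, 3.39 for lung epithelial and 2.94 for other organ genes, against 1.02 for all genes. The part of these shifts in the results on the factors was not tested.

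The factor genes were hypo methylated in all groups. In saline mice, 72.2% of their windows had under 20% methylation, against 22.3% of all windows, and 2.2% had over 80%, against 22.4% of all windows. The median window was at 6.81%, against 56.7% for all windows. Windows of the factors held a median of 29 CpGs, against 13, and 1272 calls per mouse, against 450. The spread between saline mice (median SD) was 0.761 points for factor windows under 20% and 0.794 for all windows under 20%, and 2.82 against 3.20 points at 20% to 80%. Averaged over the gene span, the factors had 15.8% ± 0.319 (SD, n = 3 saline mice), with 15.5% in the lowest and 16.1% in the highest mouse. All protein coding genes had 44.2% ± 0.249, and 70 other genes of the same families had 24.7% ± 0.226. Single factors ranged from 3.31% for Sox14, a factor of neurons, to 45.0% for Pax8, a factor of thyroid and kidney.

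At the annotated gene start the factors were almost free of methylation, whether or not the lung uses them. The window at the start was measured for 47 factors and not for Pax8, Gata4 and Six3. It was under 15% in 46 of 47 (97.9%), against 78.5% of protein coding genes and 88.7% of the other family genes. The median start was at 2.38% in the factors, 2.46% in the other family genes and 2.01% in protein coding genes. A low start was thus not particular to the factors, which differed in having fewer methylated starts. It was under 5% in 13 of 16 lung-expressed and in 19 of 19 lung-silent factors. Which list was higher at the start depended on the average used. The mean was 4.30% for lung-expressed and 2.42% for lung-silent factors, a difference of -1.88 points ± 0.314 (SD, n = 3 mice), whereas with medians over the factors the difference turned to 0.70 points. The mean of the lung-expressed list was raised by Tcf21, Tbx4 and Tbx5.

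**Figure D1:**
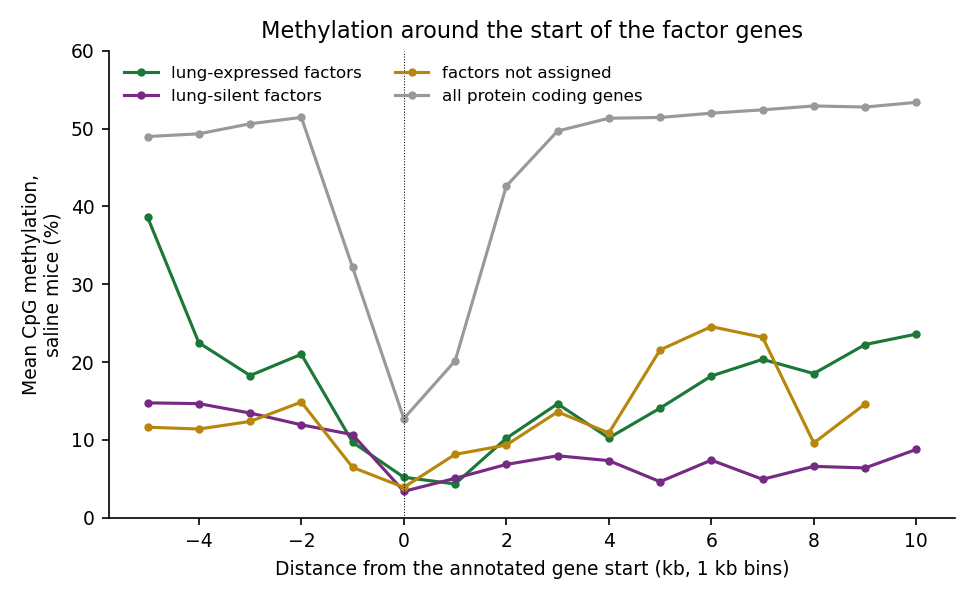
Mean methylation of windows in the 3 saline mice (vertical axis, percent) against distance from the annotated gene start (horizontal axis, kilobases, bins of 1 kb). Lines are the lung-expressed, lung-silent and not assigned factors and all protein coding genes. At the start the lines are at 5.21%, 3.40%, 3.92% and 12.8%, the lung-expressed line is lowest at 1 kb with 4.35%, and from 4 kb onward to 10 kb the lung-silent factors stay between 4.64% and 8.79% while protein coding genes are above 50%.

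The low methylation reached far beyond the start. A low methylated stretch was taken as the run of windows around the start in which each had under 15% methylation in saline mice. A window that was not measured, or had under 20 calls in any mouse, also ended the run. Lengths therefore depend on coverage too, which differed between the factors and all genes, and the part of coverage was not tested. Its median was 4500 bp over 46 factors, 3500 bp over 55 other family genes and 2500 bp over 11522 protein coding genes. It was 5000 bp or longer in 21 of the 46 factors (45.7%), against 25.5% of the other family genes and 2.48% of protein coding genes. The median was 4500 bp for lung-expressed and 5000 bp for lung-silent factors. The longest stretch was that of Irx5, an Iroquois factor of lung branching and heart, with 10500 bp, and 10000 bp to 12500 bp in single saline mice. Foxa1, which opens chromatin in lung epithelium, had 9500 bp, Irx3 had 8500 bp, and Pax3, a factor of neural crest and muscle, had 7000 bp. Six2, which keeps kidney progenitors, had 9500 bp in the saline mean, with 6500 bp to 9500 bp in single saline mice and 6000 bp in both ovalbumin groups. The long stretches thus came from lung-expressed and lung-silent factors alike.

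Away from the start the means of the lists separated, while single factors overlapped. The span ran from 5.05% to 38.0% in lung-expressed and from 3.31% to 45.0% in lung-silent factors. The gene span averaged 19.9% ± 0.327 for lung-expressed factors, 11.9% ± 0.220 for lung-silent factors and 16.9% ± 0.471 for the factors not assigned (SD, n = 3 saline mice). Lung-expressed factors were 7.95 to 8.16 points above lung-silent factors in the single saline mice. The gap was seen in the gene body, with 29.1% ± 0.574 against 12.7% ± 0.151, upstream of the start by more than 1 kb, with 22.2% ± 0.237 against 13.6% ± 0.420, and downstream of the gene, with 21.9% ± 0.499 against 16.9% ± 0.211. Within 1 kb of the start the lists had 4.92% ± 0.143 and 5.30% ± 0.173. These values by zone are means over windows, so factors with many windows weigh more. Of the lung-expressed factors, Meis1 had 83 windows and Meis2 had 63 with at least 20 calls in every mouse. The gene body value of that list rests on 279 windows. The factors are not replicates of a class, so no test was made.

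The lung-expressed factors differed widely among themselves over the gene span. The Meis factors, partners of Hox proteins, were highest, with 38.0% ± 0.709 for Meis1 and 37.5% ± 0.740 for Meis2. The T-box factors of the lung mesenchyme followed, with 34.2% ± 0.325 for Tbx4, 25.2% ± 0.888 for Tbx3, 23.9% ± 0.666 for Tbx2 and 18.6% ± 1.77 for Tbx5. The saline mice of Tbx3 and Tbx2 overlapped. Gata6, an epithelial zinc finger factor, had 31.3% ± 0.568, Wt1 had 24.9% ± 0.686, and Tcf21 had 17.5% ± 0.576. The Iroquois factors lay between 6.66% ± 0.614 for Irx2 and 18.1% ± 0.730 for Irx3, with Irx5 at 8.32% ± 0.293 and Irx1 at 13.7% ± 0.362. Foxf1, a factor of lung mesenchyme and endothelium, had 11.1% ± 0.738. The airway factor Sox2 and Foxa1 were lowest, with 5.07% ± 0.651 and 5.05% ± 0.219, and did not differ beyond their spread.

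The starts with the highest methylation belonged to Tcf21, Tbx4, Gata5, Tbx5 and Barx1. The start window of Tcf21, a helix-loop-helix factor of lung fibroblasts, was at chr10:22819501-22820500, held 37 CpGs and had 1545 to 2420 calls per mouse. It was at 18.7%, 18.6% and 19.3% in the saline mice, at 10.1%, 14.5% and 17.6% in the OVA-induced mice, and at 12.7%, 12.7%, 13.3% and 14.5% in the DSE-treated mice. Every mouse given ovalbumin was below every saline mouse, with OVA replicate 3 the closest. Tbx4 had 14.6% ± 1.37 in saline mice, Gata5, a factor of heart and gut, had 11.3% ± 2.39, and Tbx5 had 9.99% ± 2.61. Barx1, a factor of stomach mesenchyme, had 5.18% ± 0.19. The promoter of Tcf21 in RefSeq (250 bases before to 50 after the start, GRCm38.p6, chr10:22820094-22820393, minus strand) held 8 CpGs. That of Hand2 (chr8:57320733-57321032, plus strand), whose start window had 3.20% in saline mice, held 17. The median was 22 CpGs over the 19 factors whose RefSeq promoter lies at the gene start used here, and 7 over all 32851 promoters. Both promoters are shown 5′ to 3′ because one belongs to the most methylated start of the list and the other to a low one, with each CpG in capitals.
Tcf21: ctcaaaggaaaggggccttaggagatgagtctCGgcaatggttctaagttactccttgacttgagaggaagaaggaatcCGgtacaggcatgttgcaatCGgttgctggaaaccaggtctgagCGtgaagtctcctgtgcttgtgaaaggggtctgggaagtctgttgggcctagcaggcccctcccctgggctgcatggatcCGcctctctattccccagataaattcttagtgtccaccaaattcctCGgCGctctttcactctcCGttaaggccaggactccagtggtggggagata
Hand2: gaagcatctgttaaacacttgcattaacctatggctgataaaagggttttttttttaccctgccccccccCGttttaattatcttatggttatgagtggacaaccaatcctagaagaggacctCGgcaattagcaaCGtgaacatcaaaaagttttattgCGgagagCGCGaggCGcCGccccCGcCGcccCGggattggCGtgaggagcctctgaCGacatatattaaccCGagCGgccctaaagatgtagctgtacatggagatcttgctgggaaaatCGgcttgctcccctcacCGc

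The comparison OVA vs. saline asked how allergic inflammation moved the factor genes. Tbx2 and Tcf21, both of the lung mesenchyme, were lower, and Hand2, Pax7 and Pax3, factors of heart, limb, neural crest and muscle, were higher. These 5 of 50 passed the fit per gene (limma over all genes, Benjamini-Hochberg adjusted p under 0.05). The 3 higher and 2 lower stood against 9.18% of all genes called higher and 3.28% called lower, so the factors were not called more often than genes at large. At an unadjusted p under 0.05 there were 16 of 50, against 31.1% of all genes. The median difference of the factors was 0.51 points, below the 1.02 points of all genes, which are more methylated. Against windows of like level the order depended on the level. Under 20% in saline mice the median difference of pooled calls was 0.50 points in factor windows and 0.12 over all windows. At 20% to 80% it was -0.34 and 2.20 points. With the mean of all genes subtracted in each mouse, 1 factor was called higher (background 4.82%) and 5 lower (background 5.96%) in place of 3 and 2. Hand2 stayed higher, Tbx2 and Tcf21 stayed lower, Tbx3, Sox9 and Lhx9 were added below, and Pax7 and Pax3 no longer passed. The number called rested on single mice: it was 2 without saline replicate 1 or 3, 1 without saline replicate 2, 1 without OVA replicate 2 and 2 without OVA replicate 3.

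The lists differed in how they moved. Of the lung-silent factors, 19 of 21 were above 0 with a median of 1.11 points, close to all genes, and 2 were called higher and 0 lower. Of the lung-expressed factors, 8 of 16 were above 0 with a median of -0.12 points, and 2 were called lower and 0 higher. The factors not assigned had a median of 0.17 points with 10 of 13 above 0 and 1 called higher. Other genes of the same families had a median of 0.76 points, with 7 called higher and 1 lower of 70. Above 0 were 70.0% of these family genes and 70.6% of all protein coding genes. In 19 factors all OVA-induced mice were above all saline mice (background 26.6% of genes) and in 6 all were below (background 8.3%). These were 12 and 2 of the lung-silent and 4 and 3 of the lung-expressed factors.

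The mean over the lung-silent factors was 12.2%, 11.7% and 11.8% in the saline mice, 12.5%, 13.2% and 12.8% in the OVA-induced mice, and 12.7%, 13.4%, 12.6% and 13.1% in the DSE-treated mice. Every mouse given ovalbumin was above every saline mouse. This separation was not particular to the lung-silent factors. Averaged over all protein coding genes, the highest saline mouse had 44.45% and the lowest mouse given ovalbumin 44.64%. For the other family genes these values were 24.92% and 25.09%. The size of the rise was also close: group means went from 11.9% (saline) to 12.83% (OVA) for lung-silent factors, and from 44.19% to 45.18% for protein coding genes. The mean over the lung-expressed factors was 20.3%, 19.7% and 19.8% in saline, 19.3%, 19.7% and 19.95% in OVA-induced and 19.7%, 20.04%, 20.1% and 20.1% in DSE-treated mice, and the groups overlapped. The gap between the lists was 8.03 points ± 0.114 in saline (n = 3), 6.83 ± 0.288 in OVA-induced (n = 3) and 7.04 ± 0.343 in the DSE-treated mice (n = 4). The lowest saline mouse had 7.95 points and the highest mouse given ovalbumin 7.51, so the saline mice did not overlap with either group. The OVA-induced mice, at 6.55 to 7.12, overlapped with the DSE-treated mice, at 6.69 to 7.51. No test was made of these means, since the lists were drawn up with earlier results known.

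**Figure D2:**
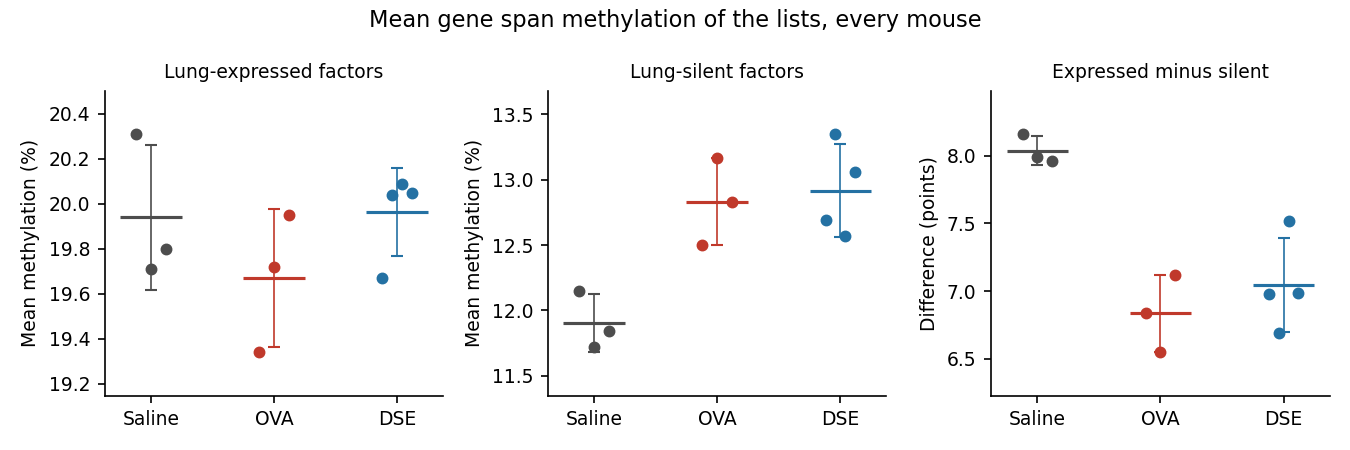
Mean gene span methylation (vertical axes, percent or percentage points) of the 16 lung-expressed and 21 lung-silent factors and their difference, with 1 point per mouse and bars for mean and SD, in 3 saline, 3 OVA-induced and 4 DSE-treated mice. Vertical axes do not start at 0. The difference is 7.95 to 8.16 points in saline mice and at most 7.51 in mice given ovalbumin.

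Median differences were also taken by starting level. Among windows with 20% to 80% methylation in saline mice, the median difference of pooled calls was -1.50 points in lung-expressed factors, 1.48 in lung-silent factors and 2.20 over all windows. Among windows under 20% it was 0.37, 0.61 and 0.12 points. Over 80%, where the lung-expressed factors had 17 windows and the lung-silent factors 10, it was -0.70, -1.44 and 0.24 points. The lung-silent factors were thus the lower list there. Of the 190 lung-expressed windows at 20% to 80%, at least 53 lay in Meis1 and 36 in Meis2. Windows are not replicates, and the part of the starting level was not tested.

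**Figure D3:**
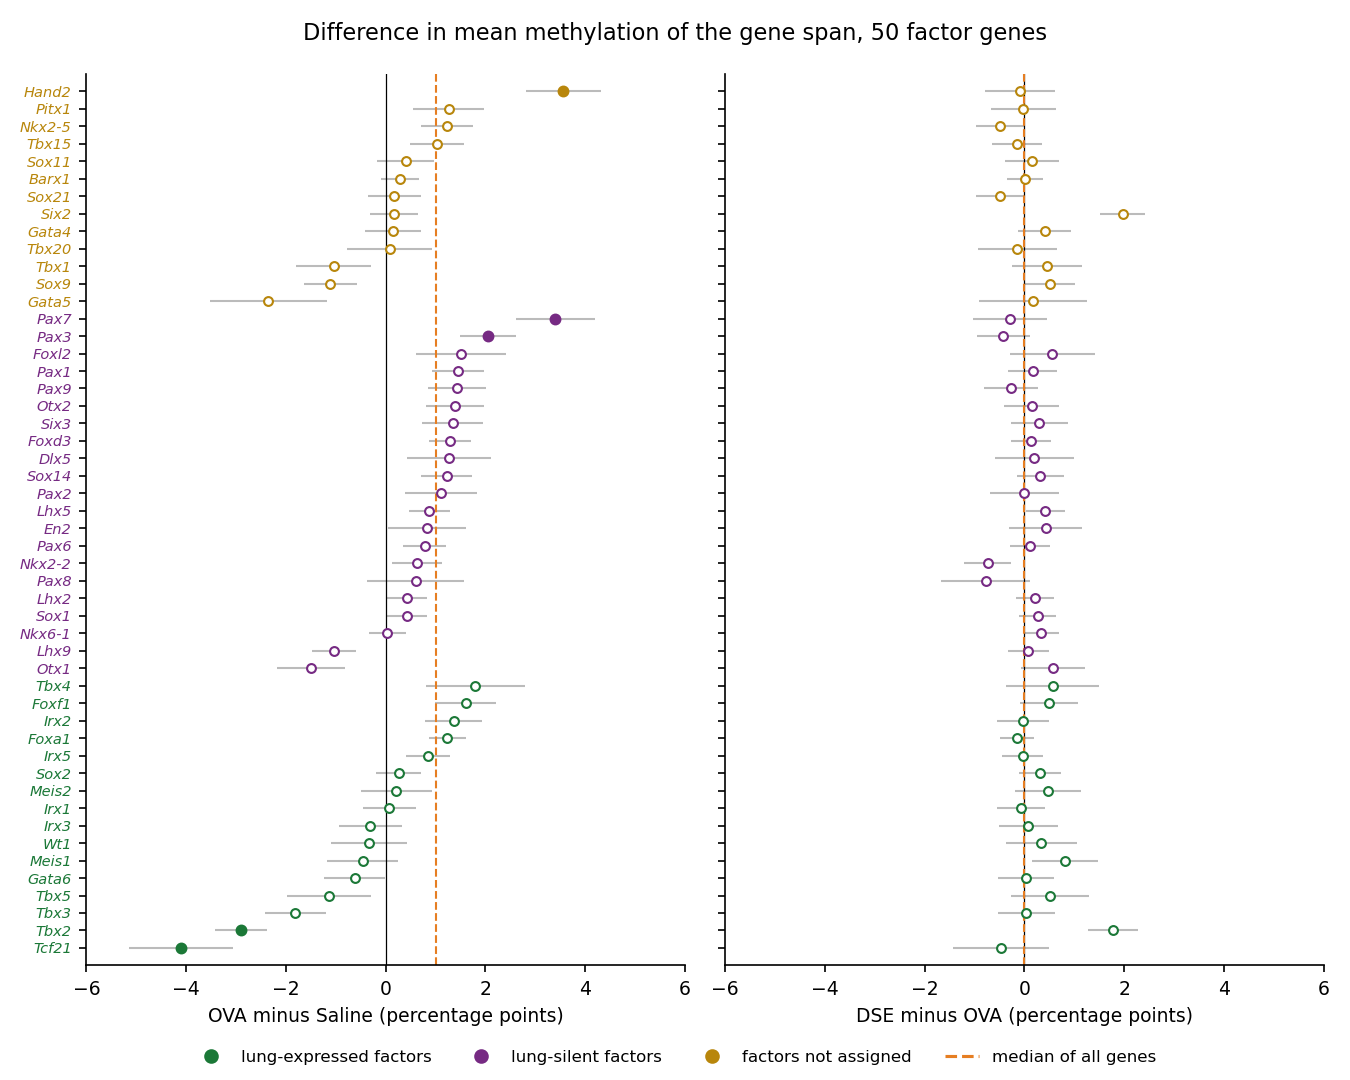
Difference in mean gene span methylation for each of the 50 factors (horizontal axes, percentage points, with standard errors of the fit) between OVA-induced and saline mice on the left and DSE-treated and OVA-induced mice on the right. Filled points passed an adjusted p under 0.05 and the dashed line is the median of all genes. The left panel holds 5 filled points, Tcf21 and Tbx2 below 0 and Pax3, Pax7 and Hand2 above, and the right panel none.

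Tbx2, a T-box repressor that keeps the lung mesenchyme dividing, lies at chr11:85832615-85841948. Its 33 windows averaged 23.8%, 24.6% and 23.3% in the saline mice, 20.7%, 21.4% and 20.9% in the OVA-induced mice, and 22.7%, 23.0%, 22.9% and 22.6% in the DSE-treated mice. The 3 groups did not overlap, and the DSE-treated mice lay between the others. Tbx2 fell by 2.90 points (SE 0.530, adjusted p = 0.012 by limma) in OVA vs. saline. The difference in DSE vs. OVA was 1.78 points (SE 0.50) and did not pass (adjusted p = 0.256 by limma). With the span extended by 10 kb in place of 5 kb the difference was -1.52 points and did not pass (adjusted p = 0.0913 by limma), and without extension it was -5.90 points. The change lay in the 3′ part of the gene: 3 windows of Tbx2 from 6886 bp to 7886 bp after the start were hypo methylated DMRs in OVA vs. saline, whereas the start window had 2.23% in saline and 1.93% in OVA-induced mice.

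The best covered of these windows of Tbx2, chr11:85840001-85841000 with 42 CpGs and 2773 to 4814 calls per mouse, had 37.2%, 40.9% and 34.0% in the saline mice. It had 25.7%, 25.5% and 26.0% in the OVA-induced mice and 30.3%, 24.6%, 27.8% and 29.7% in the DSE-treated mice. All mice given ovalbumin were below all saline mice (adjusted p = 0.0392 by limma on windows). The OVA-induced and DSE-treated mice overlapped. The window 1 kb before it in Tbx2, with 66 to 146 calls, was a hyper methylated DMR in DSE vs. OVA, with 52.4% ± 11.2 in the OVA-induced and 67.7% ± 7.87 in the DSE-treated mice, but the mice overlapped and limma gave an adjusted p of 0.44.

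Tcf21 has its gene at chr10:22817263-22820143 on the minus strand. Its 6 windows averaged 16.8%, 17.9% and 17.8% in saline, 12.1%, 11.9% and 16.1% in OVA-induced and 12.03%, 13.2%, 12.4% and 14.0% in DSE-treated mice. OVA replicate 3 lay just under the lowest saline mouse, and the others were well below. Tcf21 fell by 4.11 points in OVA vs. saline (SE 1.04, adjusted p = 0.0315 by limma) and by 4.58 points in DSE vs. saline (SE 0.970, adjusted p = 0.0133 by limma). The call in OVA vs. saline was lost without any 1 of the saline mice or without OVA replicate 1 or 2 (adjusted p = 0.0553 to 0.105 by limma, with -4.44 to -3.37 points), and that in DSE vs. saline without saline replicate 2 (adjusted p = 0.0515 by limma). With pooled calls the difference of Tcf21 in OVA vs. saline was -3.20 points (adjusted p = 0.0783 by limma). None of its windows was a DMR, and their differences of pooled calls in OVA vs. saline ran from -6.48 to -1.40 points.

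Tbx3, the close relative of Tbx2, lies at chr5:119670534-119684724. DMRs in OVA vs. saline made up 7.31% of all windows and 11.3% of those at 20% to 80% in saline mice. Tbx3 had the largest share of the factors, 5 of 40 windows (12.5%), all hypo methylated. Its span averaged 24.9%, 24.5% and 26.2% in saline, 23.8%, 23.4% and 23.0% in OVA-induced and 23.4%, 23.1%, 24.0% and 23.2% in DSE-treated mice. The saline mice did not overlap with the others, but the difference of -1.81 points did not pass (adjusted p = 0.0757 by limma). The DMRs of Tbx3 lay on both flanks rather than at the start. Downstream, chr5:119688001-119689000 had 66.0%, 66.4% and 67.2% in saline, 56.1%, 54.1% and 52.2% in OVA-induced and 55.2%, 54.2%, 54.6% and 52.6% in DSE-treated mice (adjusted p = 0.0266 for OVA vs. saline by limma on windows). Upstream, the window chr5:119668001-119669000, which also overlaps the antisense RNA gene Tbx3os1, had 30.1%, 33.5% and 30.5% in saline, 17.6%, 24.3% and 11.6% in OVA-induced and 20.3%, 30%, 20% and 13.0% in DSE-treated mice. The saline mice were above all others there, DSE replicate 2 just so, and limma gave an adjusted p of 0.13. Its 300 bases richest in CpGs (plus strand, GRCm38.p6, chr5:119668207-119668506) hold 20 of its 44 CpGs and are shown because the window had the largest fall among the DMRs of Tbx3 whose mice did not overlap, with CpGs in capitals.
Tbx3: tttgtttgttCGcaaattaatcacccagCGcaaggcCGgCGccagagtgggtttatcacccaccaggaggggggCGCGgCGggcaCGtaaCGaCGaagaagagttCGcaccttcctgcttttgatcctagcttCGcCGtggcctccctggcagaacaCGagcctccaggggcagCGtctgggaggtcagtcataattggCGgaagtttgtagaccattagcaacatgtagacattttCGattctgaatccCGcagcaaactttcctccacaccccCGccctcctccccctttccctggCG

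The other T-box factors of the lung did not pass. Tbx4 was 1.80 points higher in OVA-induced mice (adjusted p = 0.248 by limma) and Tbx5 1.14 points lower (adjusted p = 0.38 by limma). Tbx5 had 2 hypo methylated DMRs of 40 windows (5%, against 7.31% of all windows). These 2 windows lie downstream of the gene, overlap each other and had the same calls. Their saline mice spread by 15.7 points (SD), and the groups overlapped.

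Pax7, a factor of muscle stem cells and neural crest, lies at chr4:139737059-139833530 on the minus strand and was the lung-silent factor with the largest difference. Its span averaged 20.3%, 19.9% and 19.9% in saline, 23.2%, 23.4% and 23.6% in OVA-induced and 23.1%, 24.7%, 21.2% and 23.6% in DSE-treated mice. All mice given ovalbumin were above the saline mice. Pax7 rose by 3.40 points in OVA vs. saline (SE 0.790, adjusted p = 0.0236 by limma) and by 3.11 points in DSE vs. saline (SE 0.740, adjusted p = 0.0194 by limma). The call in OVA vs. saline was lost without any 1 of the saline mice or without OVA replicate 2 or 3 (adjusted p = 0.0505 to 0.0765 by limma), and that in DSE vs. saline without saline replicate 2 or 3 or DSE replicate 4 (adjusted p = 0.0508 to 0.0661 by limma). With calls pooled over windows the difference in OVA vs. saline was 1.34 points (adjusted p = 0.0565 by limma) and that in DSE vs. saline 1.53 points. At a minimum of 10 calls neither passed (adjusted p = 0.0559 and 0.0537 by limma). Pax7 had 6 hyper methylated DMRs of 57 windows (10.5%, against 7.31% of all windows) in OVA vs. saline, all far from its start. Neighbouring windows share bases, so these 6 lie in 2 places, and the windows of Pax7 at 76029 bp and 76529 bp after the start held the same calls.

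In intron 7 of Pax7 the window chr4:139756501-139757500 (14 CpGs, 217 to 349 calls per mouse) had 14.0%, 14.3% and 17.6% in the saline mice. It had 27.7%, 35.1% and 39.6% in the OVA-induced mice and 26.7%, 31.2%, 23.9% and 35.6% in the DSE-treated mice. The pooled calls differed by 18.3 points in OVA vs. saline, the groups did not overlap, and limma on windows gave an adjusted p of 0.0266. A neighbouring window of Pax7, chr4:139758001-139759000, rose from 12.5% ± 3.74 in saline to 24.98% ± 2.60 in the OVA-induced and 26.3% ± 1.79 in the DSE-treated mice (adjusted p = 0.0369 and 0.0172 against saline by limma on windows). The 300 bases richest in CpGs (plus strand, chr4:139756900-139757199) hold 10 of the 14 CpGs and are shown because this was the largest difference of all factor windows in OVA vs. saline among those in which the mice did not overlap, with CpGs in capitals. The run opens with a simple repeat.
Pax7: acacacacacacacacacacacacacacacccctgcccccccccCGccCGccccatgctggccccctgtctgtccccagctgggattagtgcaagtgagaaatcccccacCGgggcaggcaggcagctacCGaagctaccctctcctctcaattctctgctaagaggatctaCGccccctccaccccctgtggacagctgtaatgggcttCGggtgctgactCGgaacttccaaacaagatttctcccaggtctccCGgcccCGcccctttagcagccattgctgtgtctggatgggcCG

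**Figure D4:**
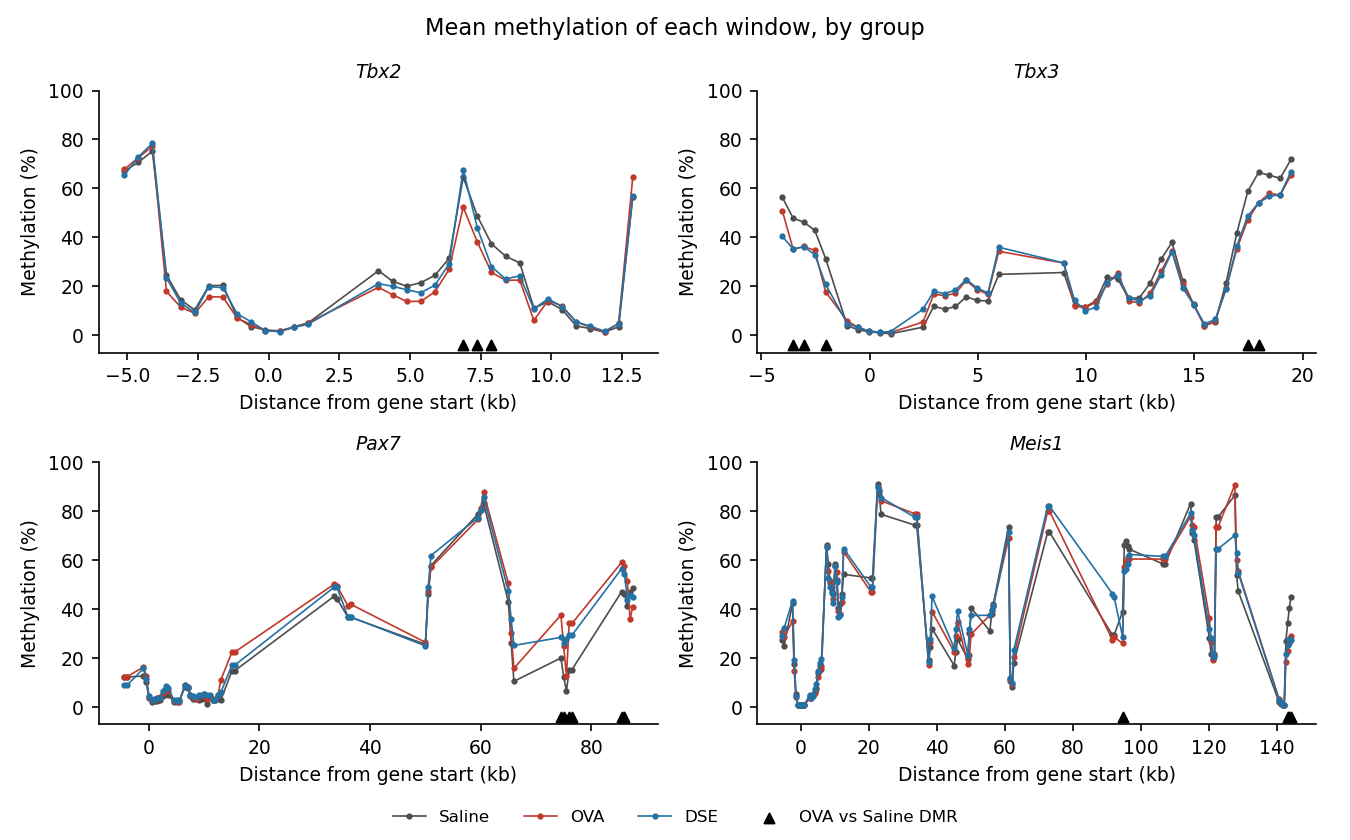
Mean methylation of each window (vertical axes, percent) against distance from the gene start (horizontal axes, kilobases) for Tbx2, Tbx3, Pax7 and Meis1, in saline, OVA-induced and DSE-treated mice. Triangles mark DMRs of OVA vs. saline. In each gene the triangles lie away from the start, where the 3 lines are near 0.

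Pax3, at chr1:78101267-78197136, averaged 11.8%, 11.4% and 12.01% in saline, 13.1%, 14.0% and 14.3% in OVA-induced and 13.1%, 13.4%, 12.6% and 14.4% in DSE-treated mice. It rose by 2.05 points in OVA vs. saline (SE 0.570, adjusted p = 0.0439 by limma), and the 1.62 points of DSE vs. saline did not pass (adjusted p = 0.0585 by limma). The call of Pax3 was lost without any 1 of 7 mice, OVA replicate 1 and DSE replicates 3 and 4 being the exceptions (adjusted p = 0.0536 to 0.139 by limma). With pooled calls the difference of Pax3 was 0.76 points (adjusted p = 0.386 by limma), with the span extended by 10 kb 1.65 points (adjusted p = 0.0974 by limma), and at a minimum of 10 calls it did not pass (adjusted p = 0.0546 by limma). All 7 Pax factors were above 0 in OVA vs. saline, from 0.60 points for Pax8 to 3.40 for Pax7, with a median of 1.43 against 1.02 for all genes. Of all protein coding genes, 70.6% were above 0.

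Pax2, a kidney factor, had DMRs of both signs. In its intron 4, chr19:44770501-44771500 had 28.0% ± 6.46 in saline and 15.2% ± 1.73 in OVA-induced mice (adjusted p = 0.0416 by limma on windows). At 54400 bp after the start of Pax2 a window rose from 31.3% ± 1.72 to 44.2% ± 3.84 (adjusted p = 0.0341 by limma on windows). Its span differed by 1.11 points, and the mice overlapped. Pax8 had 1 DMR of 17 windows (5.88%, against 7.31% of all windows), 598 bp after its start. That DMR had 49.7% ± 11.8 in saline and 39.2% ± 6.74 in OVA-induced mice, and limma did not call it (adjusted p = 0.389).

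Hand2, a helix-loop-helix factor of heart, limb and sympathetic neurons, lies at chr8:57320983-57324517. Its span averaged 10.5%, 7.88% and 9.90% in saline, 12.2%, 13.2% and 13.5% in OVA-induced and 12.2%, 14.0%, 12.5% and 12.9% in DSE-treated mice. All mice given ovalbumin were above all saline mice. Hand2 rose by 3.56 points in OVA vs. saline (SE 0.750, adjusted p = 0.0177 by limma) and by 3.46 points in DSE vs. saline (SE 0.700, adjusted p = 0.0113 by limma), with no DMR among its windows. The first call was lost without saline replicate 2 or OVA replicate 2 or 3 (adjusted p = 0.0557 to 0.0659 by limma). Over the gene of Hand2 without extension the differences were 1.83 and 1.64 points.

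**Figure D5:**
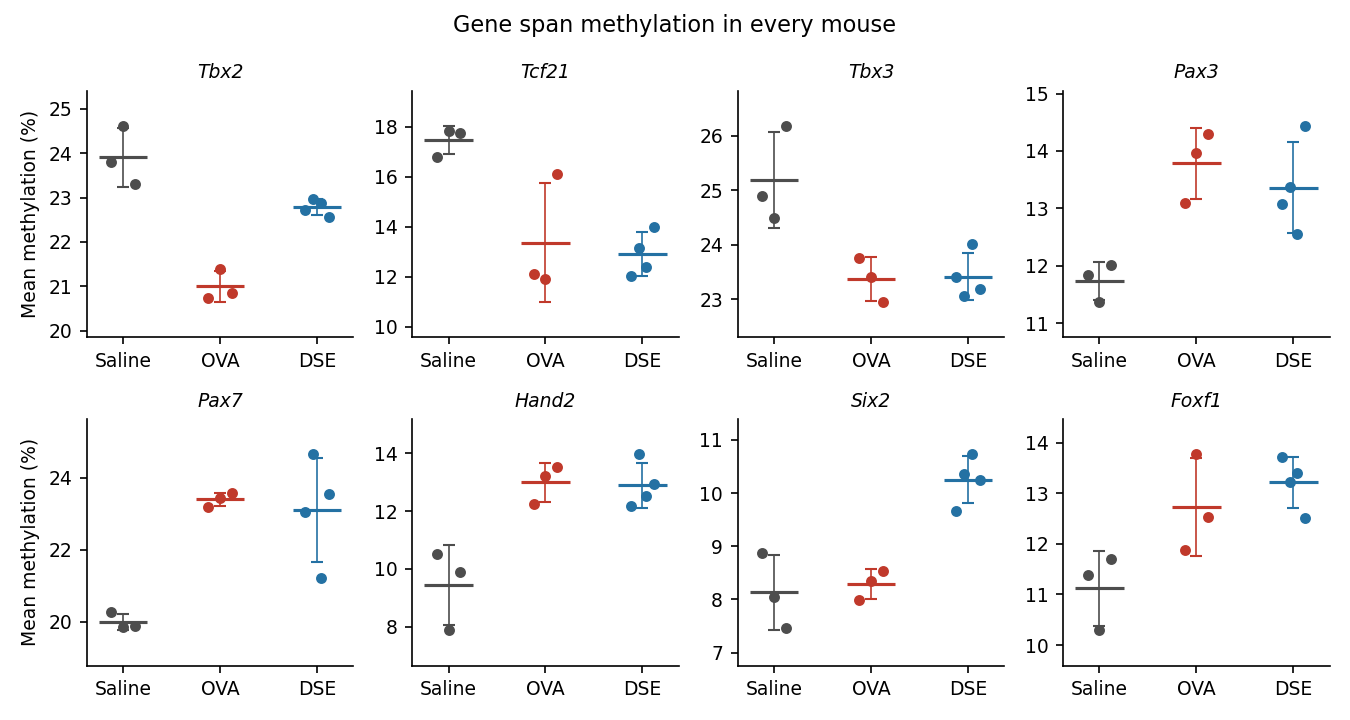
Mean gene span methylation (vertical axes, percent, not starting at 0) of 8 factors, with 1 point per mouse and bars for mean and SD, in 3 saline, 3 OVA-induced and 4 DSE-treated mice. Tbx2 shows 3 separate groups, Tcf21 and Tbx3 are lower and Pax3, Pax7 and Hand2 higher in both ovalbumin groups, Six2 is higher in DSE-treated mice alone, and the OVA-induced mice of Foxf1 overlap with the DSE-treated mice.

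At the level of windows, 10 hyper methylated and 17 hypo methylated DMRs were found among the 1441 factor windows tested in OVA vs. saline, 1.87% against a background of 7.31%. A DMR is a window with an adjusted p under 0.01 by the likelihood ratio test and a difference of at least 10 points. Against 4.75% of all windows hyper methylated and 2.56% hypo methylated, the lung-expressed factors had 2 and 14 of 514, the lung-silent factors 7 and 2 of 621, and the factors not assigned 1 and 1 of 306. Within a range of starting level the share was also lower: 6.47% of the factor windows at 20% to 80% in saline mice were DMRs, against 11.3% of all such windows, and 0.29% of those under 20%, against 2.61%. The 27 DMRs lay in 10 factors, 15 in the gene body, 7 downstream, 4 upstream and 1 within 1 kb of a start. In 23 of them the mice of the groups did not overlap, and 12 passed limma. The share without overlap among all DMRs is not given here, nor for the comparisons below. The likelihood ratio test leaves out the spread between mice. With a scale factor for that spread (F test), 0 of the 436201 windows of the whole table passed, the factor windows included. Limma on all factor windows called 24 higher (background 1.91%) and 9 lower (background 1.29%).

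Both Meis factors, partners of Hox proteins that are active in lung mesenchyme, had DMRs while their spans did not differ, by -0.46 points for Meis1 (adjusted p = 0.691 by limma) and 0.21 points for Meis2 (adjusted p = 0.863 by limma). In the flank of Meis1 beyond its 3′ end, chr11:18875001-18876000, which overlaps the RNA gene 8430419K02Rik, had 44.8%, 50.6% and 39.9% in saline, 32.5%, 29.0% and 25.2% in OVA-induced and 31.3%, 28.5%, 24.0% and 25.1% in DSE-treated mice (adjusted p = 0.041 and 0.0174 against saline by limma on windows). In exon 10 of Meis2, chr2:115921001-115922000 had 29.7%, 31.3% and 30.9% in saline, 38.7%, 45.5% and 47.8% in OVA-induced and 44.0%, 38.3%, 41.1% and 47.1% in DSE-treated mice (adjusted p = 0.0465 and 0.0366 against saline by limma on windows). Neither window overlapped between saline and the ovalbumin groups, and the directions were opposite.

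The comparison DSE vs. OVA asked what the seed extract moved in mice with the same ovalbumin. No factor passed the fit per gene, against a background of 9 of 32826 genes (0.0274%). At an unadjusted p under 0.05 there were 2 of 50, Six2 and Tbx2, against 9.14% of all genes. They are also the only 2 factors in which the mice of the groups did not overlap, both higher (background 4.96% higher and 4.09% lower). The median of the factors was 0.15 points, against -0.01 for all genes. Their single differences ran from -0.78 points for Pax8 (adjusted p = 0.875 by limma) to 1.97 points for Six2, and Meis1 was at 0.81 points (adjusted p = 0.802 by limma). This result depends on how windows are weighted: with calls pooled over windows, so that deep windows count more, 8 of 50 factors were higher (background 22.2%), among them Tbx2 by 1.70 points (adjusted p = 0.0236 by limma), Meis1 by 2.92 and Tbx4 by 3.75, but then the median of all genes was also 1.18 points higher.

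Six2, at chr17:85662736-85688254 on the minus strand, averaged 8.88%, 8.05% and 7.46% in saline, 7.98%, 8.34% and 8.53% in OVA-induced and 9.66%, 10.4%, 10.7% and 10.3% in DSE-treated mice. The saline and OVA-induced mice overlapped, and all DSE-treated mice were above both. The difference of DSE vs. OVA was 1.97 points (SE 0.450, adjusted p = 0.162 by limma), or 0.77 points with pooled calls, and Six2 rose by 2.12 points in DSE vs. saline (SE 0.450, adjusted p = 0.0135 by limma), a call that was lost without saline replicate 2 (adjusted p = 0.0505 by limma). The largest move was upstream of its start, in chr17:85693001-85694000, which overlaps the RNA gene CJ186046Rik and has 23 CpGs and 67 to 165 calls per mouse. That window had 51.9%, 39.6% and 42.7% in saline, 22.4%, 32.7% and 32.9% in OVA-induced and 45.1%, 50.3%, 54.9% and 56.9% in DSE-treated mice. It was a hypo methylated DMR in OVA vs. saline and a hyper methylated DMR in DSE vs. OVA, the OVA-induced mice were below all others, and limma did not call it (adjusted p = 0.0842 and 0.0649). Its first 300 bases (plus strand, chr17:85693001-85693300) hold 16 of the CpGs and are shown because this Six2 window was a DMR in both comparisons, with opposite signs. The capitals mark CpGs, several of which lie in a simple repeat.
Six2: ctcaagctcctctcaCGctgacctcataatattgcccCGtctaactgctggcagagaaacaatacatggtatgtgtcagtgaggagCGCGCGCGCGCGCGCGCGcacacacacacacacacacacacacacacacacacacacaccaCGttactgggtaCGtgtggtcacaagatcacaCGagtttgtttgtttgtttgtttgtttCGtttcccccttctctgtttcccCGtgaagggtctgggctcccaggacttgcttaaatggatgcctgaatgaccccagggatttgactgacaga

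Among the factor windows, 8 hyper methylated and 3 hypo methylated DMRs were found in DSE vs. OVA, 0.763% against a background of 1.62% (0.898% hyper methylated and 0.725% hypo methylated), in 6 factors. At 20% to 80% in saline mice the share was 2.43% of factor windows, against 2.21% of all such windows. In 5 of the 11 DMRs the mice did not overlap. Only 2 windows passed limma (background 0.313% higher and 0.0688% lower), both in intron 8 of Meis1 and overlapping each other. One of them, chr11:18927501-18928500 (5 CpGs, 93 to 247 calls per mouse), had 27.3%, 34.4% and 26.5% in saline, 27.0%, 30.8% and 24.7% in OVA-induced and 49.4%, 43.1%, 47.2% and 45.8% in DSE-treated mice. Every DSE-treated mouse was above every other mouse, with 18.9 points of pooled calls in DSE vs. OVA (adjusted p = 0.0332 by limma on windows) and 17.9 points in DSE vs. saline (adjusted p = 0.0158 by limma on windows). Its 300 bases with the most CpGs (plus strand, chr11:18927646-18927945) hold 3 of its 5 CpGs and are shown because the window of Meis1 was 1 of the 2 that limma called in DSE vs. OVA, with CpGs in capitals.
Meis1: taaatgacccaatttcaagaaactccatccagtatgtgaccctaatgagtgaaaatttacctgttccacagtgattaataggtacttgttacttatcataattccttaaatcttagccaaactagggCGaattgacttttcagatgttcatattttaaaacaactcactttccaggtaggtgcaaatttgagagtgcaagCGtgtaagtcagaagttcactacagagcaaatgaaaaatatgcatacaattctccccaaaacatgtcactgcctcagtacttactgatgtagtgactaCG

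The largest drop in DSE vs. OVA, in exon 3 of the heart factor Gata4 (chr14:63204501-63205500), rested on few calls, 12 to 130 per mouse, and mice under 20 calls did not enter the test. It had 76.8%, 71.0% and 25% in saline, 91.7%, 73.0% and 88.9% in OVA-induced and 42.1%, 63.1%, 38.2% and 72.0% in DSE-treated mice. The saline mice alone spread by 28.4 points (SD, n = 3), and limma did not call it (adjusted p = 0.185).

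In DSE vs. saline, Tcf21 was lower and 8 factors were higher, against a background of 4.47% and 14.3% of genes. Besides Hand2, Pax7 and Six2 these were Foxf1, Pax1, Sox14, Foxd3 and Lhx5, of which only Foxf1 is lung-expressed. The saline mice are those of the first comparison, so the results are not independent of it. The median of the factors was 0.69 points against 1.05 for all genes, and with the mean of all genes subtracted 1 factor was higher (background 6.49%) and 5 were lower (background 7.53%), with Foxf1, Pax1, Sox14, Foxd3, Lhx5, Pax7 and Six2 no longer passing. Under 20% in saline mice the median difference of pooled calls was 0.72 points in factor windows and 0.46 over all windows. At 20% to 80% it was -0.11 and 2.07 points. The number called was 4 without saline replicate 1, 1 without saline replicate 2, 5 without saline replicate 3 and 4 without DSE replicate 2 or 4. In 19 factors all DSE-treated mice were above all saline mice (background 25%) and in 4 all were below (background 7.43%).

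Foxf1, at chr8:121084386-121088154, had 11.4%, 10.3% and 11.7% in saline, 11.9%, 13.8% and 12.5% in OVA-induced and 13.7%, 13.2%, 13.4% and 12.5% in DSE-treated mice, with 2.09 points in DSE vs. saline (SE 0.580, adjusted p = 0.0328 by limma) and 1.6 in OVA vs. saline (adjusted p = 0.108 by limma). The saline mice were below both other groups. With the span extended by 10 kb the difference of Foxf1 in DSE vs. saline was 0.87 points (adjusted p = 0.324 by limma), and without extension 3.05 points (adjusted p = 0.078 by limma). Foxd3, a factor of neural crest, had 6.07%, 6.34% and 6.35% in saline and 7.61%, 7.78%, 7.63% and 7.69% in DSE-treated mice (adjusted p = 0.0338 by limma). Pax1, a factor of vertebrae and thymus, Sox14, and Lhx5, a forebrain factor named here after its value was seen, differed by 1.62, 1.54 and 1.29 points, with adjusted p of 0.0442, 0.0472 and 0.0424 by limma. At a minimum of 10 calls Pax1 and Sox14 did not pass (adjusted p = 0.0638 and 0.0595 by limma). The call of Foxf1 was lost without saline replicate 1 or 2 or DSE replicate 1, 2 or 3, and that of Foxd3 without any 1 of the saline mice or DSE replicate 2, 3 or 4. That of Pax1 was lost without saline replicate 1 or 2, OVA replicate 2 or 3 or DSE replicate 2, 3 or 4, and that of Sox14 without any 1 mouse other than DSE replicate 3 (adjusted p = 0.0511 to 0.16 by limma over these 4 factors).

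The DSE vs. saline windows held 18 hyper methylated and 19 hypo methylated DMRs of 1444, 2.56% against a background of 8.01% (4.95% hyper methylated and 3.07% hypo methylated), in 9 factors, with 30 in which the mice did not overlap. Limma on windows called 73 higher (background 4.12%) and 16 lower (background 2.46%). The largest rise among the windows without overlap outside Meis1 was in intron 1 of Tbx15, a skeletal factor, from 9.94% ± 3.50 to 27.6% ± 12.2 on 15 to 79 calls (adjusted p = 0.207 by limma on windows). These means include mice under 20 calls, which did not enter the tests. A second intron 7 window of Pax7, chr4:139767001-139768000, rose from 10.5% ± 4.06 to 25.2% ± 6.95 (adjusted p = 0.046 by limma on windows). In intron 9 of Meis2, chr2:115932501-115933500 had 33.4% ± 7.65 and 50.9% ± 11.3 on 3 CpGs (adjusted p = 0.242 by limma on windows). Downstream of Gata4, in a window that overlaps Neil2, methylation rose from 10.1% ± 0.950 in saline to 24.7% ± 4.31 in DSE-treated mice, with 16.2% ± 4.28 in OVA-induced mice (adjusted p = 0.015 by limma on windows). Downstream of Tbx1, a factor of the pharyngeal arches, chr16:18577501-18578500 had 57.7% ± 2.30 in saline and 43.8% ± 6.89 in DSE-treated mice (adjusted p = 0.136 by limma on windows).

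In 37 of the 50 factors (74.0%) no window was a DMR in any comparison, against 48.2% of all genes in the fit. The factors had a median of 24.5 windows and all genes 11. A DMR needs a difference of 10 points, and the median factor window was at 6.81% in saline mice. Such a window cannot fall that far, so the 2 shares are not of genes at like levels. These include 11 of the lung-expressed factors and 17 of the lung-silent factors.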

How the data were processed

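Lung DNA of 10 mice was captured with SureSelect Methyl-seq probes, converted with bisulfite and sequenced. The authors used Cutadapt for trimming, Bismark for mapping to mm10 and methylKit for summing CpG calls. Versions were 1.10, 0.19.0 and 1.0.0 in the submitters' processing notes, and 1.13, 0.17.0 and 1.6.0 in the study's methods. The deposited table holds raw counts of methylated, unmethylated and all CpG calls per mouse in windows of 1000 bp that start every 500 bp, none of which has fewer than 10 calls in a mouse. Every column of counts was mapped to a mouse, and 0 were left over. Depth was 306656737 to 410836272 calls per mouse, each call counted in up to 2 windows. Reads are not independent molecules, so counting error understates the error.

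Percent methylation was computed from the counts for mice with at least 20 calls. Windows were tested with a logistic likelihood ratio test in the groups compared, with at least 2 mice per group (Benjamini-Hochberg adjusted p under 0.01 and 10 points of pooled calls). The fit per gene was limma 3.58.1 with a mean-variance trend on the unweighted mean of at least 3 windows over the span extended by 5 kb, in all 10 mice (adjusted p under 0.05, 32826 genes). Limma on windows used M-values with a pseudocount of 1. Exact permutation tests were not used, since their smallest p is 0.1 for 3 against 3 mice and 0.0571 for 3 against 4. Nothing in the labels says more of the mice than their group, so p-values measure the spread between these samples. Scripts ran in Python 3.11.15, with numpy 2.4.6, scipy 1.17.1, pandas 2.3.3 and matplotlib 3.10.9, and R 4.3.3, and were tested on simulated data. Genes and promoters came from RefSeq on GRCm38, the build of the files. The factors, lists and tests were chosen with earlier results of these data known.

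Named were factors called by the fit per gene (up to 8 per comparison, or the 4 with the largest difference where under 4 were called), the 6 DMRs per comparison with the largest difference without overlap between mice (1 per factor), the 5 longest low stretches, the 5 most methylated starts, each lung-expressed factor in saline mice, and the 5 factors with the highest share of DMRs. Further DMRs of those factors, and those described for Tbx2 and Pax2, were chosen after their values were seen. Alternatives were other call minimums, thresholds, spans, weights, scalings, lists and tests, a replicate block and the omission of each mouse.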

Additional observations from a re-analysis of the deposited data

Results flagged for a closer look

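The mean gene span methylation of the 16 lung-expressed factors in the 4 DSE-treated mice was 19.67%, 20.04%, 20.09% and 20.05%. DSE replicate 1 stood apart from the others, with a gap of 0.881 of the whole range, above the 95% critical value of Dixon's test for 4 values. It was the 1 case among 68 groups of values examined in this way, and chance gives about 1 in 20.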

How the results depend on the processing

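The number of DMRs among the factor windows (27, 11 and 37 for OVA vs. saline, DSE vs. OVA and DSE vs. saline, the order kept below) was 0, 3 and 1 with at least 20 points, 0 in each with the F test, and 13, 5 and 17 in windows that do not overlap. It was 17 in OVA vs. saline within the gene span alone, 7 in DSE vs. OVA with 50 calls, and 2 and 89 in DSE vs. OVA and DSE vs. saline with limma. Leaving out 1 mouse gave 25 to 34, 8 to 15 and 35 to 44. The number of factors called by the fit per gene (5, 0 and 9) was 3 and 5 in the comparisons with saline at 10 calls, and 2, 8 and 22 with pooled calls. With pooled calls the background in DSE vs. saline was 31.2% of genes higher and 3.99% lower. Leaving out 1 mouse gave 1 to 7, 0 to 0 and 1 to 9. Replicate numbers did not pair the mice (correlations of deviations with the same number from -0.038 to 0.108). With a replicate block the fit per gene called 2, 0 and 1 factors, and the windows gave 26, 11 and 33 DMRs. The lung-silent minus lung-expressed difference at the start (-1.88 points) was -3.12 without Sox2, Wt1 and the Irx factors, -1.47 with the factors not assigned counted as silent, 0.70 with medians, -1.39 at the start of the longest transcript, and -2.05 to -1.74 without 1 mouse. Over the span (-8.03 points) it was -12.33, -6.14 and, without 1 mouse, -8.07 to -7.97. The median stretch of 4500 bp was 4000 bp under 10%, 5500 bp with 1 missing window allowed, and 4500 bp without any 1 mouse. These settings of the stretch were run for the factors only, not for the genes set beside them. The mean of the factors differed by 0.38, 0.18 and 0.56 points. These were 0.02, 0.95 and 0.97 with pooled calls, -0.67 and -0.46 in the comparisons with saline after subtracting the mean of all genes, and 0.25 to 0.56, 0.01 to 0.28 and 0.43 to 0.73 without 1 mouse. Pax8 turned to 1.68 points in DSE vs. OVA with pooled calls. Of the 306 repeats of named factors, 221 kept direction and side of the threshold, 82 lost the call, 2 gained it and 1 turned. Among them are the repeats of Six2, Tbx2, Meis1 and Pax8 in DSE vs. OVA, which had no call to lose. Lhx5 is not counted in them. Causes were not tested, apart from the smaller number of windows or mice where the setting removes them. Depth limits the windows with under 100 calls.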
